A study of Mus musculus with 2 samples.

Results

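Oligodendrocyte precursor cells (OPCs) are the dividing glia of the postnatal brain that carry the PDGF receptor alpha (Pdgfra) and later become myelinating oligodendrocytes. The cells described here are non-dividing OPCs with little Gpr17, the receptor of precursors leaving that state, and with at least 3% of their mRNA molecules on ribosomal protein genes. They were 598 of 13006 cell barcodes, 210 of 6252 in the library named WT-CNO and 388 of 6754 in the library named DREADD-CNO. The value that set them apart from other resting OPCs was measured in the same cells, so every comparison across the 3% threshold below is a description, without a test.

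Both libraries came from 8-day-old (P8) C57BL/6J pups. Each pup had been injected at P0 with pAAV-hSyn-DIO-hM4D(Gi)-mCherry, a virus whose inhibitory designer receptor (DREADD) sits behind the synapsin promoter of neurons and needs Cre recombinase. Each pup was also fed clozapine-N-oxide (CNO), the drug for that receptor, with 2 doses a day between P2 and P8. DREADD-CNO was a pool of 3 NexCre+/- pups (allele Neurod6tm1(cre)Kan, which puts Cre in excitatory projection neurons of the cortex), and WT-CNO a pool of 2 wild-type pups. Cortex and corpus callosum were pooled, dissociated with papain and enriched for PDGFRα and O4 with magnetic beads. Each group is 1 library, so no test or p-value between groups exists. Genotype, receptor activation, pups, sex and library cannot be told apart. Intervals in brackets are 95% intervals of counting error only and say nothing of variation between pups.

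Ribosomal proteins are made from some of the most heavily translated mRNAs of a growing cell. In mammals these mRNAs begin with a short run of pyrimidines, the TOP motif, through which growth signals acting on mTORC1 raise or lower their translation as a group. Progenitors that grow and divide usually hold more of this machinery than resting cells.

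The members were chosen in steps. After a filter of at least 500 genes, at least 2000 unique molecules (UMIs) and at most 10% mitochondrial UMIs, 3995 WT-CNO and 4566 DREADD-CNO barcodes remained. A Pdgfra level of at least 3 per 10000 UMIs left 2722 and 2399. Leaving out cells with microglial C1q genes and those with fewer than 2 UMIs of Olig1 and Olig2 left 2519 and 2194. Gpr17 under 3 per 10000 UMIs left 962 and 819. Upper limits of 8 per 10000 UMIs on 5 genes of G2 and M phase and on 6 genes of S phase left 849 and 721 resting OPCs, of which 210 and 388 reached the ribosomal threshold. Little Gpr17 did not mean none, since 87.1% of the WT-CNO members and 91.2% of the DREADD-CNO members had at least 1 Gpr17 UMI. The libraries shared 12 barcodes, and 0 of these were members.

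The markers of OPCs were present in both libraries. Over the members kept for the comparison of libraries (defined below), Cspg4, the NG2 proteoglycan, stood at 434 and 421 CPM (UMIs of a gene per 1000000 UMIs of all genes) in WT-CNO and DREADD-CNO. C1ql1, a secreted C1q-like protein, stood at 692 and 754 CPM, and the transcription factor Sox9 at 217 and 193 CPM. Pdgfra stood at 1289 and 1258 CPM and the transcription factor Olig1 at 1196 and 1226 CPM, but the rule used both. Over all members, summed markers of microglia were 42.8 and 54.9 CPM, against 21222 and 20693 CPM in microglia of the same libraries, whose C1q genes the rule used as well. Summed markers of endothelial cells, pericytes and fibroblasts were 1.70, 0.850 and 0.567 CPM in WT-CNO and 101, 93.8 and 176 CPM in DREADD-CNO. Those of astrocytes were 35.4 and 97.3 CPM and those of the choroid plexus 0.567 and 30.7 CPM. The members kept for the comparison of libraries were chosen by these lists, so their lower sums are no check. They still held 35.8 and 47.9 CPM of astrocyte and 0.573 and 28.5 CPM of choroid markers. Neurod6, the gene that carries Cre in the DREADD-CNO pups, had 0 UMIs in WT-CNO and 1 UMI in DREADD-CNO. Larger sums over all members came from 3 other lists. Markers of neurons, a list not used to leave cells out, were at 274 and 287 CPM. Myelin genes were at 337 and 764 CPM. Markers of precursors leaving the OPC state, Gpr17 among them, were at 1600 and 1611 CPM.

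Members made up 24.7% (21.9 to 27.8) of resting OPCs in WT-CNO and 53.8% (50.1 to 57.5) in DREADD-CNO, a difference of 29.1 percentage points (24.3 to 33.6). Cells were called female from Xist and male from Y-linked genes, which separates pups of different sex within a pool. Among female cells the shares were 24.3% and 47.5%, with a gap of 23.3 points (15.4 to 31.1). Male cells had 22.8% and 54.8%, and a gap of 32.0 points (21.3 to 40.6). Of the 20 and 37 resting OPCs with neither signal, 55.0% and 51.4% were members. Of the 28 and 54 with both signals, 21.4% and 68.5% were members. Barcodes with both signals were 2.86% of the WT-CNO and 9.54% of the DREADD-CNO members, and their source was not tested. The pools differed in sex, with 172 female and 21 male members in WT-CNO against 86 and 246 in DREADD-CNO. When only cells with no Gpr17 UMI were counted, the shares were 13.9% and 28.6% and the difference 14.7 points (5.43 to 24.3).

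**Figure D1:**
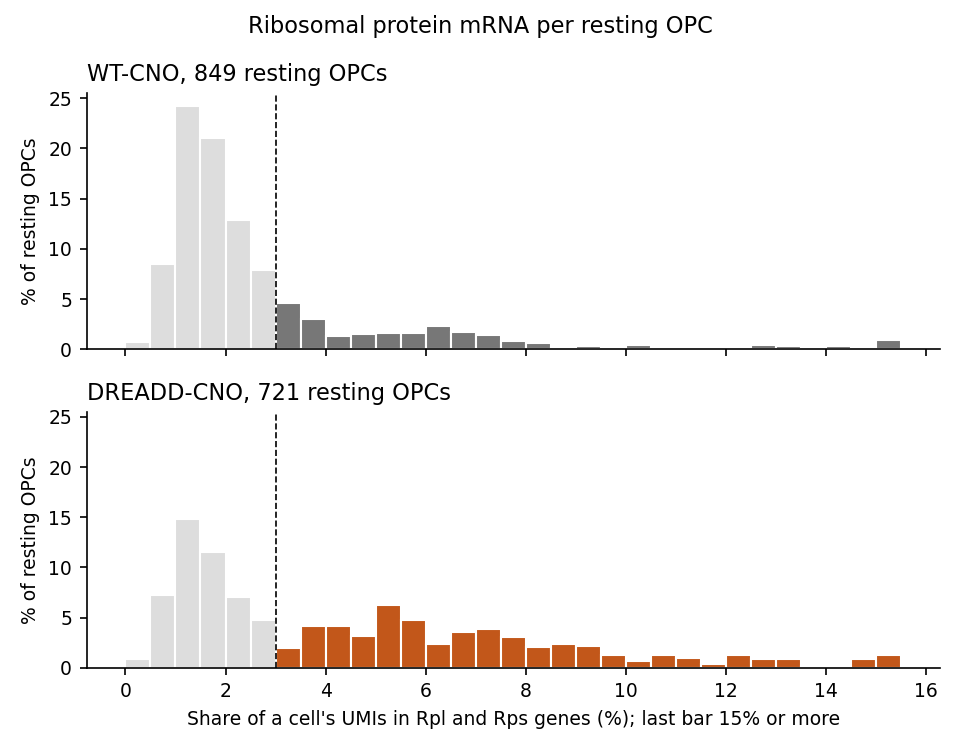
Share of each resting OPC's UMIs in Rpl and Rps genes (x axis, %, in steps of 0.5, last bar 15% or more) as a percentage of the library's resting OPCs (y axis), WT-CNO above and DREADD-CNO below. The dashed line is the 3% threshold, with the members to its right: 24.7% of the WT-CNO and 53.8% of the DREADD-CNO cells.

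The distribution had its peak between 1% and 2% in both libraries, with 45.3% of WT-CNO and 26.4% of DREADD-CNO resting OPCs there. Both libraries had a second, lower maximum above the threshold. In WT-CNO the numbers fell to 11 cells between 4% and 4.5% and rose again to 20 cells (2.36% of resting OPCs) between 6% and 6.5%. In DREADD-CNO they fell to 14 cells between 3% and 3.5% and rose to 45 cells (6.24%) between 5% and 5.5%. Just inside the threshold (3% to 3.5%) lay 39 WT-CNO and 14 DREADD-CNO members, and just outside it (2.5% to 3%) 67 and 34 cells. The WT-CNO cells just inside had a median of 4251 UMIs and those just outside 4778. In DREADD-CNO these medians were 8342.5 and 5214. A share of at least 5% was reached by 57.6% of the WT-CNO and 75% of the DREADD-CNO members.

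The members were deeper cells than ribosomal-poor resting OPCs, those below the threshold. Their median depth was 17436 UMIs in WT-CNO and 20545 in DREADD-CNO, against 8113 and 8409 in poor cells, and their median numbers of genes were 5443.5 and 5795.5, against 3042 and 3101. Their median mitochondrial share was 3.84% and 3.99%, against 5.71% and 5.81% in poor cells. The nuclear RNA Malat1 took a median of 1.82% and 1.99% of their UMIs, against 4.30% and 4.40%. These measures of depth and RNA quality move with every comparison of rich and poor cells below, and their part in it was not tested.

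Apart from the ribosomal genes whose names the rule matches, 1906 of 10866 genes (17.5%) were higher in rich than in poor cells in both libraries and 609 (5.6%) were lower. The other genes the rule used, mitochondrial ones among them, stayed in these counts. A gene was counted when its higher side had at least 20 CPM and 100 UMIs, its ratio was at least 1.5 and the interval of the ratio excluded 1. Over all these genes the median log2 ratio of WT-CNO was 0.09 and that of DREADD-CNO 0.10.

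The ribosomal genes whose names the rule does not match were all higher in the members, 7 of 7 measured, with median log2 ratios of 2.15 in WT-CNO and 2.27 in DREADD-CNO. Rplp0, the stalk protein of the large subunit, was at 173 CPM in poor and 869 CPM in rich WT-CNO cells, a ratio of 5.02, and at 164 and 838 CPM in DREADD-CNO, a ratio of 5.11. Fau, which encodes a small-subunit protein fused to a ubiquitin-like domain, had ratios of 4.91 and 5.26, and Rpsa, another small-subunit protein, 4.55 and 4.95. Rack1, a scaffold on the small subunit, had ratios of 4.34 and 4.55. Factors that work with the ribosome went the same way, with 16 of 17 higher and median log2 ratios of 1.68 and 1.73. Eef1a1, which brings aminoacyl-tRNA to the ribosome, was at 463 CPM in poor and 2033 CPM in rich WT-CNO cells and at 460 and 2128 CPM in DREADD-CNO. Tpt1, a TOP mRNA for a growth-linked protein, had ratios of 5.35 and 6.50. Eif4b, an initiation factor, was the exception with ratios of 1.81 and 1.33. Ribosome assembly factors were less uniform, with 9 of 19 higher: the snoRNP proteins Nop10 and Nhp2 had ratios of 4.61 and 4.36 in WT-CNO and 4.61 and 3.28 in DREADD-CNO, while Polr1a, the largest subunit of RNA polymerase I, had 0.838 and 0.748.

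The RefSeq start sites of these genes (GRCm38.p6) are shown because the members are defined by mRNAs of the TOP class. Each line gives 15 bases before the start and 15 from it onward, 5′ to 3′ on the gene's strand, with the first CTTT near the start in capitals.
Rack1: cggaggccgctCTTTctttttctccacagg
Fau: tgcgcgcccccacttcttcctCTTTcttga
Rplp2: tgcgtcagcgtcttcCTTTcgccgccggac
Rplp0: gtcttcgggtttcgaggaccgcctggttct
Eef1a1: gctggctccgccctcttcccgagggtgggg
These windows are chr11:48800345-48800374, chr19:6057932-6057961, chr7:141447636-141447665 and chr5:115559452-115559481 on the plus strand and chr9:78481710-78481739 on the minus strand. In Rack1, Fau, Rplp2 and Eef1a1 the start lies in a run of C and T. The Rplp0 and Eef1a1 windows lack CTTT, which says only that these letters are not there. The letters CTTT lying wholly within 10 bases of the start on the sense strand were found in 25% of the 60 ribosomal protein genes with a RefSeq window among the 79 that were higher in rich cells. They were found in 8.20% of 1548 other genes higher in rich cells, 8.72% of 436 genes lower in rich cells and 8.02% of all 8611 measured genes with a window. On the opposite strand the ribosomal protein genes had 6.67% and all measured genes 6.27%.

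Nuclear genes of the respiratory chain were higher in the members without exception, 25 of 25, with median log2 ratios of 1.81 and 2.03. Ndufa2, a complex I subunit, had ratios of 4.97 in WT-CNO and 5.89 in DREADD-CNO, and Atp5e, a subunit of ATP synthase, 4.81 and 6.28. The 13 genes encoded in the mitochondrion itself went the other way, lower in value in both libraries in 13 of 13, with median log2 ratios of -0.47 and -0.35. Only mt-Nd6, of these, passed the size rule, with ratios of 0.511 and 0.525. Glycolysis genes were higher in 10 of 16, among them Gapdh (4.23 and 4.67), and Slc16a1, a lactate transporter, was not counted (1.30 and 1.47). Heat shock genes were higher in 6 of 9, led by the mitochondrial chaperonin gene Hspe1 (3.60 and 3.84). The endoplasmic reticulum chaperone Hspa5 had ratios near 1 (0.979 and 0.958). Cholesterol synthesis genes were higher in 7 of 21, among them Idi1 (3.03 and 3.37), while Cyp51, a sterol demethylase, had 1.04 and 1.12.

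Regulators of the progenitor state were split by gene. Of 12 bHLH, Id and Hes genes, 9 were higher in the members. Id2, an inhibitor of bHLH factors, had ratios of 4.33 and 4.43. Hes1, a Notch target, was at 19.4 CPM in poor and 58.4 CPM in rich WT-CNO cells, a ratio of 3.02, and the DREADD-CNO ratio was 2.65. Tcf4 and Tcf12, their broadly expressed partners, were below 1 (0.80 and 0.781, and 0.776 and 0.639). Of 10 Sox genes, 6 were higher and 2 lower. Sox9 was at 55.2 CPM in poor and 215 CPM in rich WT-CNO cells (ratio 3.90) and at 50.7 and 184 CPM in DREADD-CNO (3.63). Sox5 and Sox6, which hold back oligodendrocyte differentiation, had ratios of 0.650 and 0.600 and of 0.652 and 0.574. Among regulators of G1 phase, Ccnd1 (cyclin D1) had ratios of 3.12 and 3.03 and its kinase partner Cdk4 4.20 and 4.08, while Cdk6 was counted as lower (0.616 and 0.648).

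Adhesion and receptor genes were among the lower ones. Of 25 synaptic adhesion genes 18 were lower in the members and 0 higher, with median log2 ratios of -0.68 and -0.85. Lsamp, a limbic cell adhesion protein, was at 16117 CPM in poor and 9895 CPM in rich WT-CNO cells (0.614) and at 17152 and 9614 CPM in DREADD-CNO (0.560). Pcdh9, a protocadherin, had ratios of 0.600 and 0.537. Of 9 NMDA and kainate receptor genes 5 were lower, among them Grik2 (0.594 and 0.601). Of 11 AMPA receptor genes Gria4 (0.629 and 0.593) and the auxiliary subunit Shisa9 (0.647 and 0.587) were lower and the trafficking protein Cnih2 (3.63 and 3.22) was higher. Gria2 had ratios of 0.669 and 0.682, just short of the size rule. Of 12 growth factor receptors 4 were lower, the neuregulin receptor Erbb4 among them (0.595 and 0.541), and the long nuclear RNAs Malat1 (0.451 and 0.491), Meg3 (0.599 and 0.523) and Miat (0.643 and 0.525) were lower as well.

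**Figure D2:**
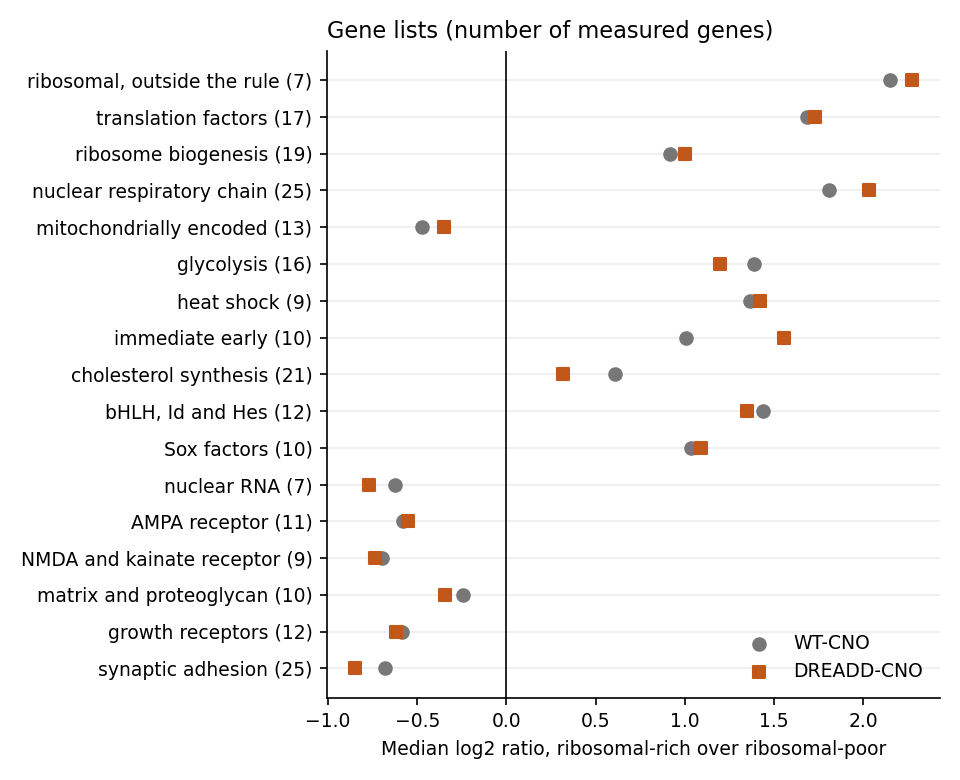
Median log2 ratio of ribosomal-rich over ribosomal-poor resting OPCs for 17 gene lists (rows, with the number of measured genes), WT-CNO as circles and DREADD-CNO as squares, without error bars. Ribosomal genes outside the rule lie at 2.15 and 2.27 and synaptic adhesion genes at -0.68 and -0.85.

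By the ratio of the library nearer to 1, the genes furthest above it, apart from those already named, were Pfn1 (5.67 and 5.87), which binds actin monomers, Tmsb10 (5.24 and 6.74), another actin-binding peptide, the metallothioneins Mt1 (5.27 and 7.38) and Mt3 (4.99 and 6.33), Ppia (4.80 and 5.10), Selenow, Hist3h2ba and Krt1. The furthest below were Tsix (0.310 and 0.333), Rad51b (0.279 and 0.362), Sorbs2os, B9d1, Sox5os4, Nrg3os, Ctnna3 (0.420 and 0.441), Mms22l, Tes, Xist, Nrg1 (0.480 and 0.481) and Malat1.

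The ratio of rich over poor cells varied with gene length over all measured genes. Genes were placed in 6 bins by the length of the gene in the annotation, introns included. Among 932 genes of at most 5 kb the median log2 ratio in WT-CNO was 1.29 and in DREADD-CNO 1.38, and 50% of them were counted as higher. Among 506 genes of over 300 kb the medians were -0.63 and -0.74, and 49.6% were counted as lower and 0 as higher. Genes over 300 kb held 20.8% of UMIs in rich and 32.5% in poor WT-CNO cells, and 19.6% and 33.4% in DREADD-CNO. The adhesion, receptor and ribosomal lists differ in gene length, so their medians and the length bins are not separate observations.

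**Figure D3:**
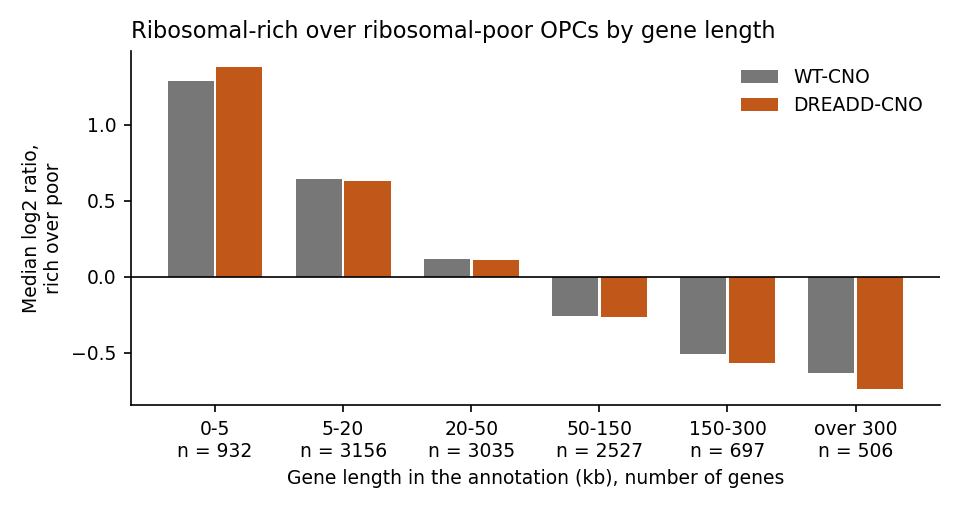
Median log2 ratio of ribosomal-rich over ribosomal-poor resting OPCs (y axis) in 6 bins of gene length (x axis, kb, with the number of genes), WT-CNO in grey and DREADD-CNO in orange, without error bars. The bars run from 1.29 and 1.38 in the shortest genes to -0.63 and -0.74 in the longest.

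Before the libraries are compared, members with many UMIs of other cell types' markers or of myelin genes have to be named. In DREADD-CNO 13 members, and in WT-CNO 0, held at least 10 per 10000 UMIs of a marker list of another cell type: endothelial (4 cells), pericyte (5), fibroblast (5), astrocyte (3) or microglia (1), some of them on more than 1 list. A further 21 DREADD-CNO and 4 WT-CNO members held at least 20 per 10000 UMIs of myelin genes. OPCs become myelinating cells themselves, and whether this myelin RNA was their own was not tested. Both sets are called cells holding other RNA below. Such cells were 8.76% of the DREADD-CNO members (34 cells) and 1.90% of the WT-CNO members. The 34 cells carried 463 of the 464 UMIs of Vtn (a pericyte gene), 446 of 459 of the endothelial Cldn5 and 330 of 334 of the collagen gene Col1a1. Scores for doublets, 2 cells in 1 droplet, were high in 11 of the 34. With all members, 117 of 11264 measured genes (1.04%) were higher in DREADD-CNO and 31 (0.275%) lower. Without these cells, 206 WT-CNO and 354 DREADD-CNO members remained, with 34 of 11167 genes (0.304%) higher and 25 (0.224%) lower. With all members, 32 of the 34 and 22 of the 25 had also been counted. The comparisons of libraries and the bins of ribosomal share below use the remaining 560 cells, a step chosen after the data were seen. Unevenness between cells and the comparison with neighbouring OPCs use all 598 members.

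Few genes differed between the libraries, and the median log2 ratio over all measured genes was -0.01. Apart from Xist, Tsix and the Y-linked genes, 30 were higher in DREADD-CNO, all 30 with the same direction in female cells and 26 in male cells, and 11 past a ratio of 1.5 in both. Likewise 23 were lower, 23 with the same direction in female and 21 in male cells, and 4 past the ratio in both. WT-CNO had only 20 male cells among these members and DREADD-CNO 230, against 169 and 76 female cells. Within WT-CNO alone, 202 genes were higher in female than in male cells and 10 lower, and within DREADD-CNO 3 and 107, those genes included. The WT-CNO part of that comparison rests on the 20 male cells. The size rule asks for a minimum of UMIs on the higher side, which the sex with fewer cells reaches for fewer genes. The larger group was female in WT-CNO and male in DREADD-CNO. These counts therefore cannot show in which direction the sexes differed. Xist, at 813 and 290 CPM, and the Y-linked genes Eif2s3y (12.3 and 81.3 CPM) and Ddx3y (6.30 and 38.2 CPM) followed the mix of sexes.

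Immediate early genes, which cells switch on within minutes of a stimulus or of dissociation, had the highest median ratio of the lists with at least 10 measured genes. Of 12 measured, 11 were higher in value in DREADD-CNO, 3 passed the size rule and the median log2 ratio was 0.58. Their summed level was 573 CPM in WT-CNO and 851 CPM in DREADD-CNO, a ratio of 1.48 (1.41 to 1.56), with 1.30 in female and 1.68 in male cells. Fos, a subunit of AP-1, stood at 26.9 and 69.6 CPM, a ratio of 2.59 (2.07 to 3.26). In female cells Fos was at 27.1 and 56.1 CPM and in male cells at 39.7 and 70.3 CPM, so both sexes had the higher value in DREADD-CNO. Egr1, a zinc finger factor induced by growth factors and activity, stood at 157 and 289 CPM, a ratio of 1.84 (1.67 to 2.02). Egr1 was at 167 and 214 CPM in female cells and at 86.6 and 312 CPM in male cells, so its ratio was below 1.5 in female cells. Ier2, another early response gene, was at 25.5 and 45.7 CPM (1.79, 1.41 to 2.29). Jun (1.15) and Jund (1.23) were nearer to 1, and Btg2 was below it (0.735).

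With both sexes pooled, Egr1 and Fos had higher values in DREADD-CNO in other cells too. In ribosomal-poor resting OPCs Egr1 was at 54.2 CPM in WT-CNO and 93.0 in DREADD-CNO and Fos at 12.2 and 18.8. In rich cells with Gpr17 at or above its limit Egr1 was at 109 and 216 CPM and Fos at 20.3 and 42.3. Microglia had Fos at 2149 and 2443 CPM and Egr1 at 762 and 953 CPM. Microglial markers in the members were at 0.196% and 0.221% of their level in microglia. At those shares microglial RNA would hold 4.21 and 5.41 CPM of Fos and 1.49 and 2.11 CPM of Egr1. The rule capped the C1q genes of this marker list, and the list was also used to leave cells out, so these shares were limited by selection. The part of microglial RNA in the difference was not tested.

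**Figure D4:**
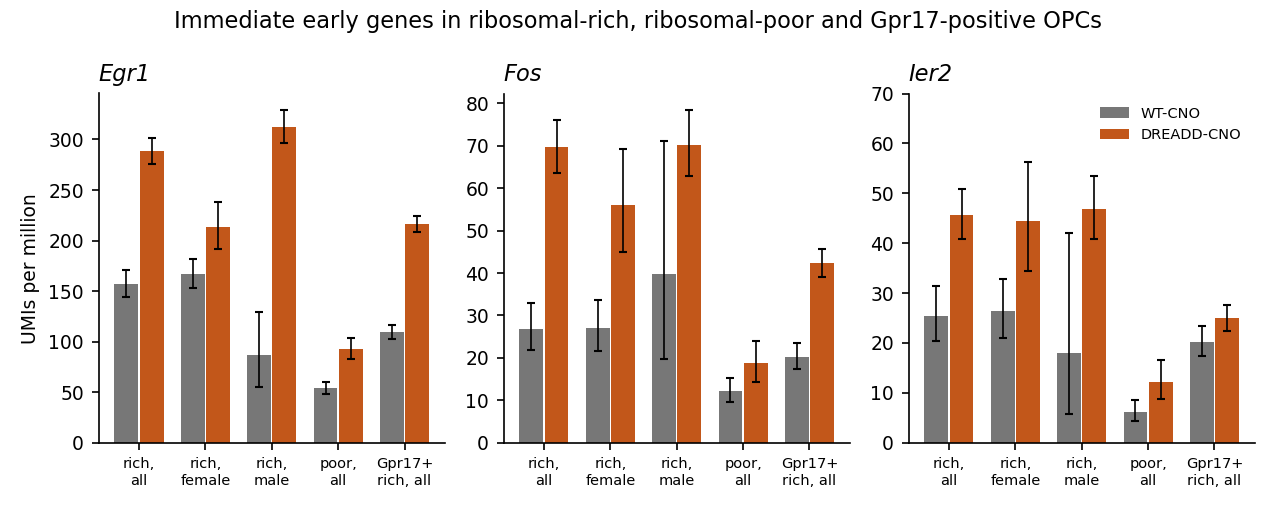
Level of Egr1, Fos and Ier2 (y axis, CPM) in WT-CNO (grey) and DREADD-CNO (orange) for members, female members, male members (without cells holding other RNA), ribosomal-poor OPCs and Gpr17-positive rich OPCs. Bars are summed counts of 1 library each and error bars exact 95% counting intervals. Every DREADD-CNO bar is above its WT-CNO partner. The difference is smallest for Ier2 in Gpr17-positive rich cells (20.3 and 24.9) and largest for Egr1 in male members (86.6 and 312). The interval for male WT-CNO members (20 cells) is the widest for each gene, for Egr1 from 55.5 to 129.

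Cholesterol synthesis genes were next among the lists with at least 10 measured genes. Of 21 measured, 20 were higher in value in DREADD-CNO, with a median log2 ratio of 0.25 and a summed level of 1732 and 2151 CPM, a ratio of 1.24 (1.21 to 1.28). The ratio was 1.24 in female and 1.28 in male cells. The size rule was passed by 1 gene of the list. Hmgcs1, the first committed enzyme of the pathway, was at 251 and 337 CPM, Msmo1 at 178 and 237 CPM and Fdft1, which makes squalene, at 71.6 and 101 CPM. Scd1, a fatty acid desaturase outside this list, was at 15.5 and 25.7 CPM (1.66). In poor resting OPCs the summed level of the list was 1279 and 1480 CPM. Microglia did not show it, with 583 and 553 CPM. The shorter list of myelin genes had a higher median log2 ratio, 0.33, with 4 of 6 measured genes higher in value and 0 past the size rule. Its summed level was 316 and 402 CPM, a ratio of 1.27 (1.19 to 1.37), with 1.27 in female and 1.60 in male cells. Over all members the sums were 337 and 764 CPM, and this list was used to leave cells out.

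All members had been chosen by a ribosomal share of at least 3%, which limits how far ribosomal genes can differ among them, with a median share over all members of 5.55% (WT-CNO) and 6.51% (DREADD-CNO). In the 560 cells the 7 ribosomal genes outside the rule had a summed ratio of 1.00 (0.984 to 1.02), with 1.02 in female and 1.15 in male cells. Translation factors had 1.02 (1.01 to 1.04), with 1.04 and 1.17. Ribosome assembly factors had 0.953 (0.919 to 0.989), but lay above 1 in each sex (1.02 in female and 1.08 in male cells). Nuclear respiratory chain genes were higher in value in DREADD-CNO in 25 of 25, with a ratio of the sums of 1.08 (1.07 to 1.10) and none past the size rule. Their sum rose with the ribosomal share, which was higher in DREADD-CNO. At shares of 3% to 5% it was 6465 CPM in WT-CNO and 7080 in DREADD-CNO, and at 5% to 7% 9679 and 9726 CPM. At 7% to 10% it was 11470 and 11888 CPM, and at 10% or more 13788 and 13881 CPM. AMPA receptor genes had a summed ratio of 1.03 (1.01 to 1.05). Gria1 was at 121 and 95.6 CPM (0.793), Gria2 at 1022 and 1093 CPM (1.07), Gria3 at 527 and 519 CPM and Gria4 at 557 and 529 CPM, and none of them passed the size rule. NMDA and kainate receptor genes had 0.926 (0.900 to 0.953) and heat shock genes 0.943 (0.923 to 0.963), with 0.970 in female and 1.14 in male cells.

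The list of growth genes had 1 gene past the size rule, Hmga2, which was lower in DREADD-CNO. Hmga2, a chromatin protein of fetal and neonatal progenitors, was at 39.8 and 17.3 CPM, a ratio of 0.434 (0.337 to 0.557), with 0.587 in female and 0.778 in male cells. With both sexes pooled, Hmga2 was also lower in poor OPCs (36.5 and 17.9 CPM) and in Gpr17-positive rich OPCs (23.7 and 9.96 CPM). Female cells alone had lower values in DREADD-CNO too, at 41.7 and 30.9 CPM in poor and 27.4 and 8.01 CPM in Gpr17-positive rich OPCs. Male cells alone had the higher value in DREADD-CNO in both groups, at 7.63 and 10.9 CPM in Gpr17-positive rich OPCs. The male WT-CNO values rest on 7 Hmga2 UMIs in poor and 5 in Gpr17-positive rich OPCs. Myc was at 19.5 and 6.85 CPM (0.352, 0.238 to 0.516), below the level the size rule asks for. Of the 6 measured genes of this list 5 were lower in value, and the ratio of the sums was 0.693 (0.619 to 0.777). That ratio was 0.792 in female and 1.10 in male cells. Genes outside that list were lower as well. Dll3, a Notch ligand of progenitors, was at 63.0 and 38.8 CPM (0.616), with 0.481 in female and 0.643 in male cells. Grm3, a metabotropic glutamate receptor, was at 30.9 and 18.8 CPM (0.609), but over all members at 30.6 and 33.1 CPM (1.08), so its direction turns on the cells left out. Gsx1, a patterning factor, was at 35.2 and 22.7 CPM (0.644). Of 12 bHLH, Id and Hes genes 11 were lower in value, with a summed ratio of 0.951 (0.932 to 0.970) and 0 past the size rule.

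Other genes past the size rule were scattered over functions. Higher in DREADD-CNO were Ppargc1a, a coactivator of mitochondrial genes (22.1 and 36.5 CPM, 1.66), the matrix protein Sparc (38.1 and 64.8 CPM, 1.70, against 3.97 over all members), S100a4 (57.0 and 93.0 CPM, 1.63), Unc5d (2.02), Fkbp9 (1.78) and Ube3b (1.74). Lower were Rapgef4 (0.464), Acot7 (0.582), Ankfn1 (0.606), Pvt1 (0.623), Ephb2 (0.631), Kdm6a (0.634, an X-linked gene that escapes inactivation) and Gtf2h2 (0.642). Among the 27 WT-CNO and 34 DREADD-CNO members without a Gpr17 UMI, the ratios of Unc5d, Hmga2, Rapgef4 and Ephb2 lay on the other side of 1. Tenm2, an adhesion protein, was lower overall (296 and 184 CPM, 0.624) but went opposite ways in the sexes, as did Lypd6 (44.4 and 72.8 CPM, 1.64). Ttr, the transthyretin of the choroid plexus, had 0 UMIs in WT-CNO and 27.8 CPM in DREADD-CNO, at least 32.4-fold higher than the 3 UMIs that a count of 0 allows. Ttr was also at 42.3 CPM in poor OPCs and 34.1 CPM in microglia of DREADD-CNO, a like level in unrelated cells.

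The members themselves varied with their ribosomal share. From members with 3% to 5% to those with 10% or more, Eef1a1 went from 1199 to 4212 CPM in WT-CNO and from 1303 to 3657 CPM in DREADD-CNO. Over the same range Malat1 went from 25361 to 11556 CPM and from 27347 to 15946 CPM. Pdgfra, which all had to carry, went from 1469 to 772 CPM and from 1401 to 830 CPM. Sox9 was highest between 5% and 7%, at 295 and 227 CPM, and lowest at 10% or more, at 66.7 and 76.6 CPM, whereas Ccnd1 was highest there, at 560 and 509 CPM. The top bin held 27 WT-CNO and 50 DREADD-CNO cells, with a median mitochondrial share of 5.28% and 4.87% against 3.71% and 3.11% in the lowest bin. Egr1 was higher in DREADD-CNO in each of the 4 bins, at 216, 274, 337 and 335 CPM from the lowest bin to the top one, against 182, 124, 150 and 192 CPM in WT-CNO.

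**Figure D5:**
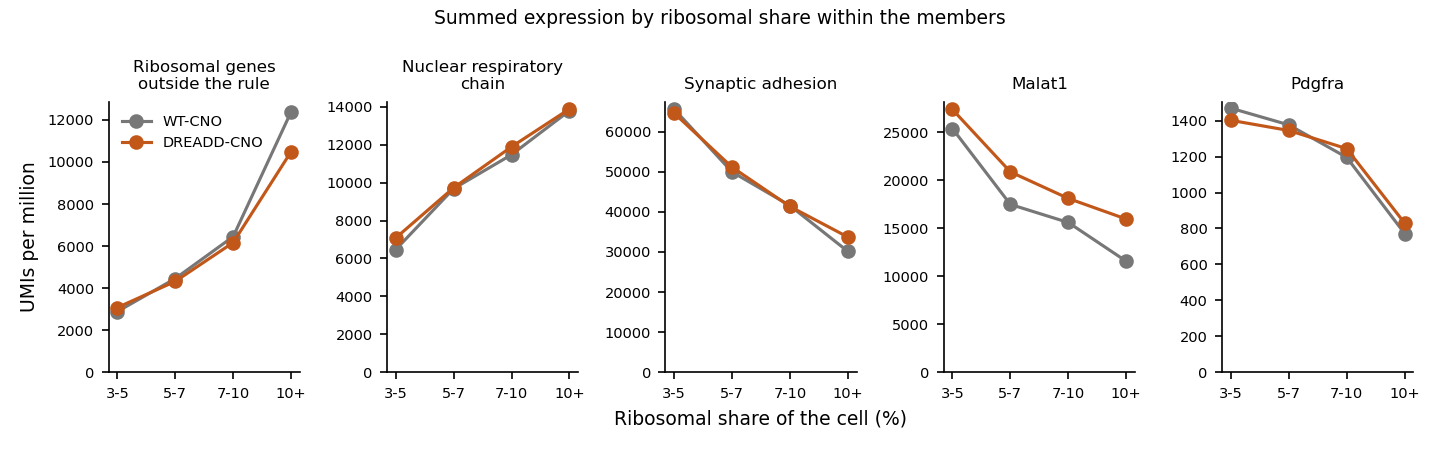
Summed level (y axis, CPM, from 0) of ribosomal genes outside the rule, nuclear respiratory chain genes, synaptic adhesion genes, Malat1 and Pdgfra in members by ribosomal share (x axis, 4 bins in %), WT-CNO in grey and DREADD-CNO in orange, without error bars. Pdgfra goes from 1469 and 1401 at 3-5% to 772 and 830 at 10% or more. Malat1 is higher in DREADD-CNO in each bin. The libraries also part at 10% or more for ribosomal genes outside the rule (12379 in WT-CNO and 10486.5 in DREADD-CNO) and for synaptic adhesion genes (30142 and 33718).

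Some genes were carried by a minority of members. Overdispersion, the variance between cells beyond counting error per squared mean, had a median of 0.147 in WT-CNO and 0.136 in DREADD-CNO over 3922 genes of at least 50 CPM. Cntnap2, a neurexin-family adhesion protein, had 5.84 and 5.96, and the 10% of cells with the highest level held 72.2% and 77.9% of its UMIs. Kctd8, a subunit of GABA-B receptors (81.3% and 74.3%), and Galntl6 (82.7% and 78.6%) were as uneven, against a median gene with 32.4% and 30.5%. Epb41l2, Bcas1, Fgf13, Kcnip4, Rasgef1b, Agbl4, Hs6st3, Sirt2 and Gm16168 completed the 12 most uneven genes. After cells were thinned to 10000 UMIs 6 of the 12 stayed in this rank (Cntnap2, Kctd8, Galntl6, Fgf13, Kcnip4 and Agbl4), and without the cells holding other RNA 7 did (these and Hs6st3). The uneven genes did not mark 1 shared set of cells: across their 66 pairs, correlations over cells lay between -0.19 and 0.19 in WT-CNO and between -0.16 and 0.39 in DREADD-CNO. The highest overlap of top cells was 8 of 21 and 18 of 39.

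Rich OPCs at or above the Gpr17 limit, 429 and 665 cells, were the closest neighbours of the members. Of 10955 genes, 65 (0.593%) were higher in them in both libraries and 10 (0.0913%) lower. Apart from Gpr17 itself, which set the groups, the higher ones were led by genes of committed precursors: Enpp6 (11.7 and 3.63), Bmp4 (4.54 and 3.57), St18 (3.41 and 4.33), Neu4 (2.40 and 2.29) and Bcas1 (2.24 and 2.25). The lower ones, hence higher in the members, included cyclin D2 (Ccnd2, 0.527 and 0.611), Igfbp2 (0.640 and 0.519), which binds insulin-like growth factors, Tead1 (0.636 and 0.641), a factor of the Hippo pathway, and Grm3 (0.410 and 0.475). These values depended on the cells holding other RNA, which carried 66.5% of the Enpp6 UMIs of the DREADD-CNO members. With such cells left out of the members, 85 genes were higher and 10 lower, and the Enpp6 ratios were 12.4 and 9.92. With such cells also left out of the neighbours, 17 were higher and 6 lower, and the ratios were 2.94 and 2.71 for Enpp6, 2.15 and 3.17 for Bmp4 and 2.08 and 2.21 for Neu4, while St18 (1.15 and 2.96) and Bcas1 (1.42 in WT-CNO) no longer passed the size rule in both libraries. Ccnd2 was then at 0.553 and 0.622, whereas Igfbp2 (0.687 and 0.70), Tead1 (0.637 and 0.756) and Grm3 (0.390 and 0.822) did not pass it in both either.

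Cycling rich OPCs, 42 and 55 cells, had 194 genes (1.77%) higher and 159 (1.45%) lower than the members. The higher were mitosis genes such as Prc1, which the rule did not use (63.1 and 97.7), and the lower included Kctd16 (0.275 and 0.210) and Ebf1 (0.208 and 0.280). Without the cells holding other RNA 192 were higher and 156 lower, with 0.282 and 0.206 for Kctd16 and 0.208 and 0.388 for Ebf1.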

How the data were processed

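WT-CNO and DREADD-CNO cells gave 1 library each (10x Single Cell 3' v3). The deposited values were UMI counts per gene and barcode, made with Cell Ranger 7.1.0 per the submitters' processing notes. Both build and annotation were not given in the sources used here, and the 32285 features were used by symbol.

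Members were found by the rule given in the report. Members, gene lists and rules were chosen with earlier results of these data known. UMIs were summed over cells per library and scaled to CPM, and genes with a mean of at least 5 CPM were called measured. Shares have Clopper-Pearson 95% intervals, their differences Newcombe intervals, and levels and ratios exact intervals, all for counting error only; 3 counts stand for a count of 0. The rule for genes to name took the 12 highest and the 12 lowest past the size rule in each comparison, the 12 most uneven, and from each of 35 lists the counted, most abundant and most extreme members; not all are given in the text, and some are not reported here. It leaves out Gm, Rik, haemoglobin, Xist, Tsix, Y-linked and ribosomal genes between libraries and mitochondrial ones between rich and poor cells.

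The rule has no doublet step. The automatic threshold of Scrublet called 0.0250% of filtered WT-CNO and 1.62% of filtered DREADD-CNO barcodes, so cells with high scores (145 and 186) were left out only as an alternative. Gene lengths came from GENCODE M21 (GRCm38), in which 32235 identifiers matched, and start sites from RefSeq (GRCm38.p6). Software was Python 3.11.15, numpy 2.4.6, scipy 1.17.1, pandas 2.3.3, scanpy 1.11.5, matplotlib 3.10.9, and edgeR 4.0.16 in R 4.3.3 for TMM factors only. The size rule was tested on simulated data. Alternatives changed the thresholds of the rule, depth, scaling, filters, sex and doublets; the removal of cells with other RNA was added after the data were seen.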

Additional observations from a re-analysis of the deposited data

Results flagged for a closer look

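Tenm2 and Lypd6 had opposite ratios of DREADD-CNO over WT-CNO in female and in male cells, with both intervals away from 1. Over all members Tenm2, a teneurin adhesion protein, had a ratio of 0.480 (0.418 to 0.549) in female cells, at 316 and 151 CPM, and of 3.43 (2.10 to 6.03) in male cells, at 56.0 and 192 CPM. Without the cells holding other RNA its ratios were 0.455 in female and 3.43 in male cells. Lypd6, a membrane-anchored protein of the Ly6 family, had 2.24 (1.73 to 2.92) in female cells, at 34.4 and 77.1 CPM, and 0.636 (0.437 to 0.958) in male cells, at 105 and 66.8 CPM. Without the cells holding other RNA these were 2.52 and 0.635. The difference between the sexes was not tested, since each group is 1 library. The male values of WT-CNO rest on 21 cells. Male and female cells of a pool also come from different pups, so sex and pup cannot be told apart.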

How the results depend on the processing

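No paired analysis was possible because each group is 1 library. The share of members among resting OPCs was 14.3% and 40.4% with a ribosomal share of at least 5%, and 37.0% and 67.7% with at most 5% mitochondrial UMIs. In female cells DREADD-CNO had 47.5% and the difference was 23.3 points. With no Gpr17 UMI the shares were 13.9% and 28.6% and the difference 14.7 points. Against 117 genes higher in DREADD-CNO, 66 were counted without high doublet scores, 76 in female and 310 in male cells, 51 without cells with markers of other types and 34 without those and myelin-rich cells (both chosen after seeing the data), and 49 at a ratio of at least 2. Against 31 lower, 19 were counted at a 5% ribosomal share, 19 without high doublet scores, 89 in female and 11 in male cells, 4 at a ratio of 2, 63 by the mean over cells and 16 after thinning to 10000 UMIs. For rich over poor cells, against 1906 higher, 1221 were counted in female cells, 87 in male cells and 20 with no Gpr17 UMI. Against 609 lower, 1034 were counted at a 5% share, 399 in female and 176 in male cells, 147 with no Gpr17 UMI, 401 with totals lacking mitochondrial, ribosomal and myelin genes, and 42 at a ratio of 2. Against 65 genes higher and 10 lower in Gpr17-positive rich OPCs than in members, 17 and 6 were counted without cells of other RNA on both sides (chosen after seeing the data).

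Of 746 log2 ratios of named genes between libraries, 602 moved within counting error and 126 beyond it. The other 18 changed sign and belong to genes that passed the size rule over all members. For the remaining named genes, such as Grm3, a change of sign was not counted apart. With no Gpr17 UMI the 18 included Aldoc (-0.042), Aqp4 (-2.90), Enpp6 (-0.14), Ephb2 (0.17), Hmga2 (0.10), Rapgef4 (1.15) and Unc5d (-3.07). In male cells they were Lypd6 (-0.65), Pde1a (0.57), Rapgef4 (0.053), Tenm2 (1.76) and Tsix (1.02), and in female cells Aqp4 (-0.57), Unc5d (-0.043) and Xist (0.056). Aqp4 was -0.10 at a 5% share, and Id3 -0.077 and -0.052 in the 2 sets without cells of other RNA. Splits by sex and by Gpr17 hold fewer cells, which lowers the number of genes that can reach 100 UMIs; otherwise the cause was not tested. Of 288 rich over poor ratios of named genes 0 changed sign.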
